A study of Mus musculus with 6 samples.

Results

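The receptor SORLA, its relative sortilin, the endocytic receptors LRP1 and LRP12, the chaperone of LRP1 and 4 subunits or partners of the retromer coat were followed in bulk RNA-seq libraries of mouse macrophages with and without the soluble epoxide hydrolase (sEH). The members are 9 genes, *Sorl1*, *Sort1*, *Lrp1*, *Lrp12*, *Lrpap1*, *Vps35*, *Vps26a*, *Vps29* and *Snx27*, each found by its symbol in a count table of 19309 genes. All 9 had a mean of more than 5 counts and were among the 13785 genes tested. The group was chosen by what these same libraries had shown of *Sorl1* and its partners, so the differences of the members between the genotypes are given as a description and without a test.

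Libraries came from bone marrow-derived macrophages of 3 sEH-/- mice, which carry a constitutive, global deletion of *Ephx2*, and of 3 wild-type mice, described in the methods as littermates. The methods list C57BL/6N mice and take bone marrow from animals of 8 to 10 weeks. They state that most experiments used cells from females. The results text, after its comparison of the sexes, says that later experiments used blood or bone marrow of females. No label gives the sex of these 6 libraries. In both genotypes, monocytes grew for 7 days with 15 ng/mL each of GM-CSF and M-CSF, received IFN-γ (1 ng/mL) and LPS (10 ng/mL), and were re-polarized with TGF-β1 (10 ng/mL) to the M2c state. The series' design text gives 24 h for the inflammatory step and 48 h for TGF-β1, whereas the methods give 12 h and 24 or 48 h. Untreated and M1 cells have no library here, so the values describe the M2c state alone.

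SORLA and sortilin carry a VPS10P domain, a lumenal fold that binds cargo in the Golgi and in endosomes and hands it to another compartment. SORLA is best known for steering the amyloid precursor protein away from the endosomes in which it is cleaved. Retromer, a trimer of VPS35, VPS26 and VPS29, recognises the tails of such receptors on endosomes and returns them to the Golgi or, with SNX27, to the cell surface. LRP1 is a large receptor of the LDL receptor family through which macrophages take up lipoproteins, protease complexes and cell debris.

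*Sorl1* is the gene on which the results turn, and the bases just before its start are shown so that its position and composition can be seen. *Sorl1* (ENSMUSG00000049313, protein-coding) lies on mm10 chromosome 9 between 41964720 and 42124297 and is read from the minus strand. The 250 bases upstream of its annotated start (RefSeq, GRCm38.p6, chr9:42124298-42124547, minus strand, 5′ to 3′) read as follows, with matches to GGGNNNNNCC, GGGCGG and CACGTG in capitals.
*Sorl1* upstream: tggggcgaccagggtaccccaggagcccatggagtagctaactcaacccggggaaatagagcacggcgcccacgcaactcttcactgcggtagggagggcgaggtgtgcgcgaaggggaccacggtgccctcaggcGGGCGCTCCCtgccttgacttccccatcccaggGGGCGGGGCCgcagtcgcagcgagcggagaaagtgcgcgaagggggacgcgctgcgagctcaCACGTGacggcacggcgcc

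The stretch was 69.6% G and C, against a median of 52.4% over the same 250 bases of 32851 promoters. Both strands were searched. GGGNNNNNCC, a loose form of the NF-κB site, matched at 2 places and was present in 45.8% of all promoters. The SP1 core GGGCGG matched once, inside the second of these matches, and was present in 32.7%. The E-box CACGTG matched once, its last base 14 bases before the start, and was present in 6.02%. No match was found in this window for CAGAC, the letters of a Smad-binding element, which 42.2% of promoters held, or for TATAAA, which 12.4% held. These matches describe letters only. A second *Sorl1* start in the same reference, inside the gene (chr9:42077214-42077463 for its upstream bases), was 47.2% G and C and held CAGAC once and none of the other motifs. Upstream sequences were matched for 5 of the 9 members.

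The other members are also protein-coding genes and, in mm10 with the strand as + or -, lie apart from it. The receptors and the chaperone are *Sort1* on chromosome 3 (108284082 to 108361511, +), *Lrp1* on chromosome 10 (127538161 to 127621148, -), *Lrp12* on chromosome 15 (39870589 to 39943994, -) and *Lrpap1* on chromosome 5 (35091501 to 35105766, -). The coat genes are *Vps35* on chromosome 8 (85260392 to 85299802, -), *Vps26a* on chromosome 10 (62455235 to 62486805, -), *Vps29* on chromosome 5 (122354369 to 122364984, +) and *Snx27* on chromosome 3 (94497544 to 94582716, -).

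The libraries held 4400197 to 6096440 counts. The deleted gene *Ephx2* gave 26, 49 and 57 counts in wild-type libraries, against 4, 2 and 1 without the sEH. Listed macrophage markers (*Cd68*, *Adgre1*, *Csf1r* and 5 others) were all detected, with a summed level of 2233 to 2734 CPM in sEH-/- against 1990 to 2471 CPM in wild-type cells and 0 of 8 called. The log2 fold change of sEH-/- over wild-type was above 0 for all 8, with a median of 0.21. For *Cd68* and *Lyz2*, near the limit set by the removal of duplicate reads (below), the sign may reflect the scaling. CPM are counts scaled to a common library size by TMM. A called gene had an adjusted p (edgeR quasi-likelihood test, Benjamini-Hochberg over all genes tested) under 0.05 and differed by more than 1.5-fold.

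*Sorl1* was the member that stood apart. Its counts were 468, 396 and 399 without the sEH, and 160, 182 and 148 with it. After scaling these were 80.1, 79.9 and 92.5 CPM in sEH-/- against 35.2, 29.5 and 26.5 CPM in wild-type cells. Each sEH-/- library was above each wild-type library, and the lowest of the former was more than 2 times the highest of the latter. The means were 84.2 ± 7.24 CPM (SD, n = 3) and 30.4 ± 4.39 CPM (SD, n = 3), a log2 fold change of 1.47 (SE 0.11) or 2.78-fold. By fold change it ranked 71 among the 208 genes called higher. In bulk RNA, more *Sorl1* per cell and more cells that carry it cannot be told apart.

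*Sort1*, which encodes sortilin, a sorter of progranulin and lysosomal proteins, did not share this pattern. It had 304, 323 and 413 CPM in sEH-/- against 420, 392 and 349 CPM in wild-type cells. The genotypes overlapped, since sEH-/- replicate 3 was above 2 of the wild-type libraries, and the log2 fold change was -0.16 (SE 0.12). The ratio of *Sort1* to *Sorl1*, both per exonic length, was 5.68, 6.04 and 6.68 in sEH-/- against 17.9, 19.8 and 19.7 in wild-type libraries. Put as a share of the summed level of both receptors, *Sorl1* made up 14.97%, 14.21% and 13.02% in sEH-/- against 5.298%, 4.797% and 4.841% in wild-type cells. Sortilin transcripts were thus the more abundant of this pair in all 6 libraries. The other receptors of the family, *Sorcs1*, *Sorcs2* and *Sorcs3*, had no row in the table used here.

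**Figure D1:**
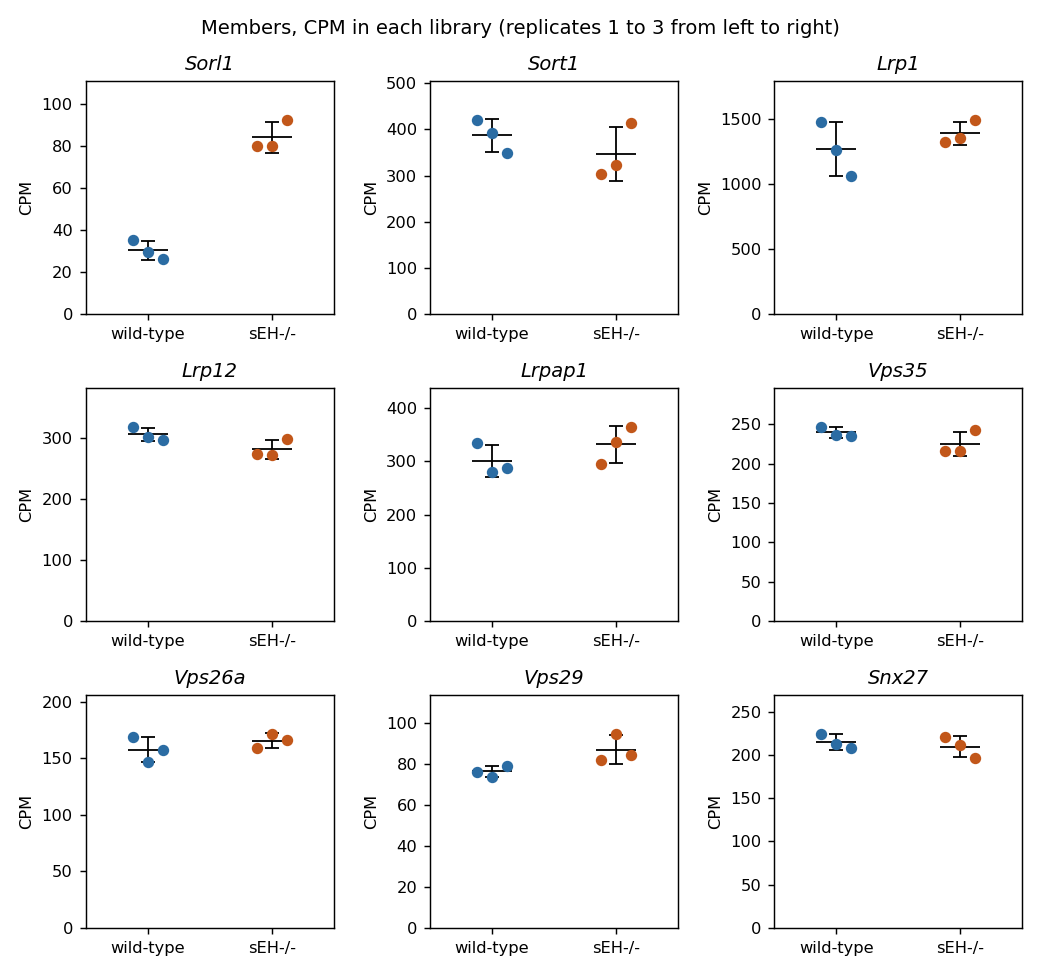
CPM of each of the 9 members (y axes from 0) in the 3 wild-type (blue) and 3 sEH-/- (orange) libraries, with the mean and SD in black. *Sorl1* sits at 26.5 to 35.2 CPM in wild-type and 79.9 to 92.5 CPM in sEH-/- libraries, while the genotypes overlap for every other member but *Vps29*.

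*Lrp1* did not separate the genotypes. It had 1330, 1358 and 1497 CPM in sEH-/- against 1482, 1268 and 1068 CPM in wild-type cells. The wild-type libraries spread more widely than the sEH-/- libraries and reached into their range, and the log2 fold change was 0.13 (SE 0.13). *Lrpap1* encodes RAP, the chaperone that keeps new LDL receptor family members, and also SORLA and sortilin, from binding ligands before they leave the secretory pathway. It had 294, 336 and 365 CPM in sEH-/- against 335, 280 and 287 CPM in wild-type cells, which overlapped (log2 fold change 0.14, SE 0.10). *Lrp12*, a smaller member of the family, had 274, 272 and 300 CPM against 319, 303 and 298 CPM. Its sEH-/- replicate 3 was above the lowest wild-type library, and the log2 fold change was -0.12 (SE 0.075). The ratio of *Lrp1* to its chaperone, per exonic length, was 0.981 ± 0.0603 in sEH-/- against 0.981 ± 0.102 in wild-type cells (SD, n = 3 each).

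The 3 retromer subunits stayed within narrow ranges. *Vps35*, the scaffold of the trimer, had 216, 216 and 243 CPM in sEH-/- against 247, 237 and 235 CPM in wild-type cells, a log2 difference of -0.091 (SE 0.074). *Vps26a*, whose product meets the tail of SORLA, had 159, 172 and 166 CPM against 169, 147 and 158 CPM (log2 fold change 0.072, SE 0.074). Both overlapped between the genotypes. *Vps29*, the subunit that binds regulators such as TBC1D5 and is also part of the retriever complex, had 81.8, 94.8 and 84.2 CPM against 76.1, 73.8 and 79.1 CPM. Its genotypes did not overlap, but the gap between them was under 3 CPM and the log2 fold change was 0.19 (SE 0.081). *Vps26a* was more abundant than its paralogue *Vps26b* per exonic length, at 2.43 ± 0.0715 times in sEH-/- and 2.26 ± 0.183 times in wild-type cells (SD, n = 3 each).

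*Snx27*, a sorting nexin whose PDZ domain ties cargo to retromer, had 221, 211 and 197 CPM in sEH-/- against 225, 212 and 207 CPM in wild-type cells. The genotypes overlapped almost fully, with a log2 fold change of -0.034 (SE 0.073). Its sign turned without sEH-/- replicate 3, to 0.018. Over the 8 members other than *Sorl1*, log2 fold changes ran from -0.16 to 0.19 with SEs of 0.073 to 0.13.

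Counted together, 1 of the 9 members was called, *Sorl1*, which was higher in sEH-/- cells. Of all genes tested, 2.61% were called, 1.51% as higher and 1.1% as lower. The libraries of the genotypes did not overlap for 2 members, *Sorl1* and *Vps29*, and for 26.3% of all genes. The log2 fold change was above 0 for 5 members and below 0 for 4, with a median of 0.072, beside a median of -0.00092 over all genes. Nothing is read from these counts, since the same contrast chose the group. The number of called genes depended on single libraries. It was 360 with all 6 libraries, 6 without wild-type replicate 3, 25 without wild-type replicate 2, 96 without sEH-/- replicate 2, 570 without sEH-/- replicate 3 and 625 without wild-type replicate 1. The log2 fold change of *Sorl1* was 1.38 to 1.58 over the 6 omissions.

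**Figure D2:**
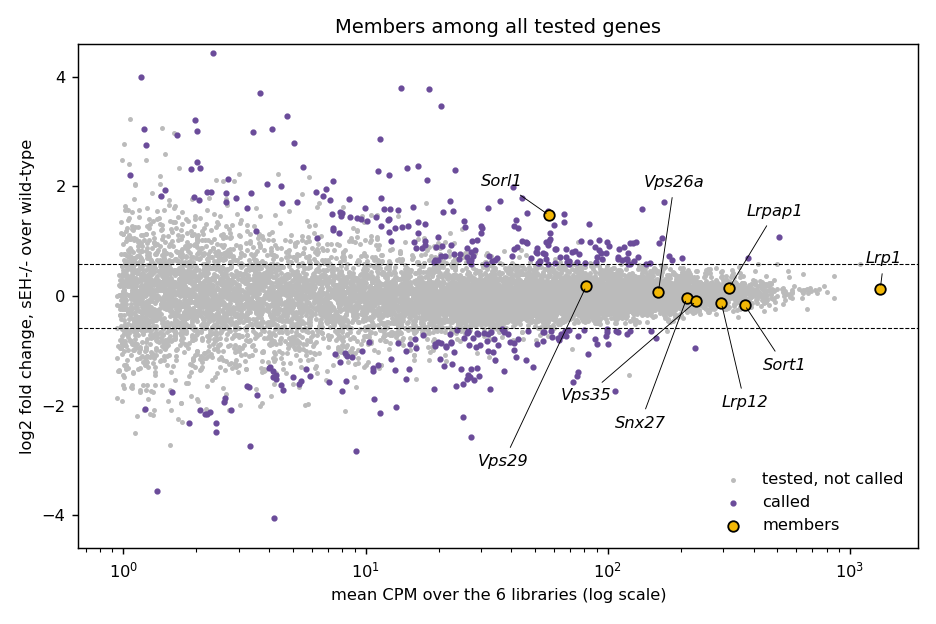
Log2 fold change of sEH-/- over wild-type (y axis) against the mean CPM over the 6 libraries (x axis, log scale) for the 13785 genes tested, with called genes in purple, members in yellow and dashed lines at the fold change threshold. *Sorl1* lies at 1.47, and the other 8 members lie between -0.16 and 0.19.

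**Figure D3:**
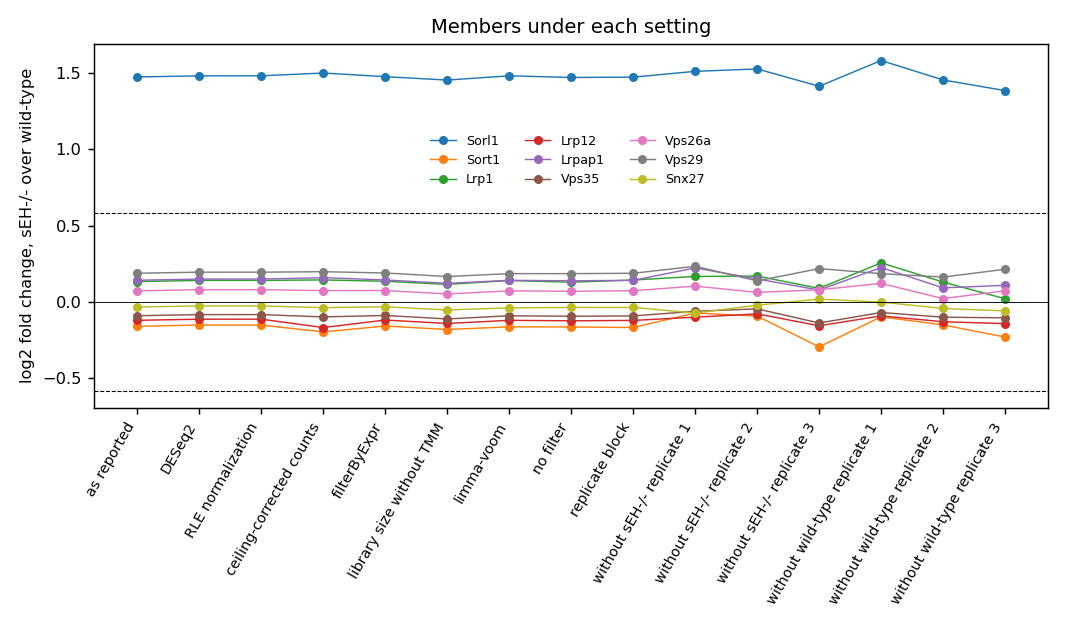
Log2 fold change of each member (y axis) under each processing setting (x axis), with dashed lines at the threshold. *Sorl1* stays between 1.38 and 1.58, and no other member reaches the threshold under any setting shown.

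Levels of different genes were compared as CPM per kb of exon. In wild-type cells the order was *Lrpap1* (73.0 ± 7.33), *Lrp1* (71.8 ± 11.7), *Lrp12* (66.8 ± 2.46), *Vps26a* (55.2 ± 3.81), *Sort1* (51.1 ± 4.77), *Snx27* (31.2 ± 1.30), *Vps35* (26.9 ± 0.719), *Vps29* (12.4 ± 0.426) and *Sorl1* (2.69 ± 0.388; SD, n = 3 each). The ranges of *Lrpap1*, *Lrp1* and *Lrp12* overlapped, as did those of *Vps26a* and *Sort1*, and these neighbours did not differ beyond their spread. *Sorl1* was last, above 22.3% of the tested genes with a known length, whereas *Lrpap1* was above 98.2% and *Sort1* above 94.4%. In sEH-/- cells *Sorl1* reached 7.43 ± 0.639 CPM per kb (SD, n = 3), still the lowest of the 9.

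This order depended in part on the length used. With the principal transcript in place of all exonic bases, an alternative chosen after seeing the data, *Vps35* moved from place 7 to 4 at 69.0 ± 1.84 CPM per kb and *Snx27* from 6 to 5 at 60.8 ± 2.53 (SD, n = 3 each). *Vps26a* and *Sort1* fell to places 6 and 7. The first 3 places and the last 2 were the same genes, and *Sorl1* was at 2.84 ± 0.410. *Vps26a* exceeded its paralogue *Vps26b* by a smaller ratio with this length. Their wild-type levels were 60.7 ± 4.19 and 34.9 ± 1.01 CPM per kb (SD, n = 3 each). No exonic base of any member was shared with another gene on the same strand.

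**Figure D4:**
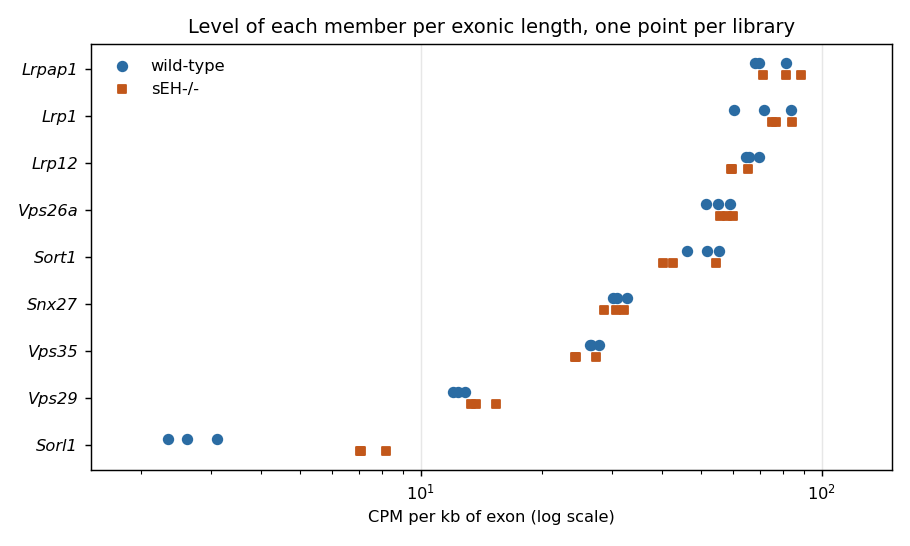
CPM per kb of exon (x axis, log scale) of each member in the 3 wild-type (blue circles) and 3 sEH-/- (orange squares) libraries, ordered by the wild-type mean. *Sorl1* is lowest in both genotypes, at 2.69 CPM per kb in wild-type and 7.43 in sEH-/- cells on average.

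Removal of duplicate reads bears on these levels. Counts of very abundant transcripts were almost equal in all libraries, such as 1153 to 1173 for *Lyz2* and 1580 to 1641 for *Actb*, although the library totals differed 1.39-fold, and no tested gene had more than 0.972 counts per exonic base. *Sorl1*, at 0.026 counts per exonic base, was far from that limit. *Lrpap1* and *Lrp1* reached 0.3972 and 0.3901, so their levels and differences may be understated. Per base of the principal transcript they were at 0.548 and 0.464. *Lrp12*, *Vps35*, *Vps26a*, *Snx27* and *Sort1* were at 0.280 to 0.374 by that length, so their values may be affected too. The macrophage markers *Cd68* and *Lyz2* were closer to the limit, at 0.886 and 0.881. *Lyz2* had 1153, 1170 and 1154 counts in sEH-/- against 1155, 1173 and 1154 in wild-type libraries. Its log2 fold change of 0.11 thus came from the scaling to library size. A correction took 1 count per exonic base as the most that could be kept, and was chosen after seeing the data. It may fall short, since *Actb* was already almost flat at 0.602 counts per exonic base. With this correction, the log2 fold change was 1.50 for *Sorl1*, 0.16 for *Lrpap1*, 0.14 for *Lrp1*, -0.17 for *Lrp12* and -0.20 for *Sort1*.

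The wider sorting pathway was described by 10 lists of genes with known roles, written with earlier results of these data known. They held 96 tested genes that are not members, of which 2 (2.08%) were called, *Thbs1* and *Vldlr*, and 19 (19.8%) did not overlap between the genotypes. Over all genes tested, these shares were 2.61% and 26.3%. The median log2 fold change of the 96 genes was 0.034.

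None of the other tested genes that build or recruit the sorting coats was called. This held for 10 genes of retromer and its recruiters (median log2 fold change 0.032), 15 of the retriever and CCC complex (0.040), 9 of the WASH complex, which builds actin on endosomes (0.073), and 11 Golgi adaptors of VPS10P receptors (0.017). Among genes averaging 50 counts or more, the largest differences in these lists were 0.51 (SE 0.14, adjusted p = 0.0648, edgeR) for the sorting nexin *Snx32*, -0.23 (SE 0.088, adjusted p = 0.154) for *Commd6*, 0.17 (SE 0.088, adjusted p = 0.267) for *Washc1* and 0.26 (SE 0.072, adjusted p = 0.0675) for *Ap1m1*, a subunit of the AP-1 adaptor. *Snx32* passed both thresholds without sEH-/- replicate 1.

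Among 10 other LDL receptor family genes, 1 was called lower and 0 higher, with a median log2 fold change of 0.0042. *Vldlr*, a receptor for triglyceride-rich lipoproteins and reelin, had 30.8, 15.9 and 39.4 CPM in sEH-/- against 60.2, 82.6 and 66.3 CPM in wild-type libraries. All sEH-/- values were below all wild-type values, for a log2 fold change of -1.29 (SE 0.24, with an adjusted p = 0.0248, edgeR quasi-likelihood test). The call was lost without wild-type replicate 2 (adjusted p = 0.123) or 3 (adjusted p = 0.123). None of 6 other chaperones, adaptors and turnover factors of the family was called, and *Dab2*, a clathrin adaptor for these receptors, had the largest difference among them at 0.27 (SE 0.097, adjusted p = 0.12).

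Of 11 ligands, 1 was called. *Thbs1* encodes thrombospondin 1, which LRP1 clears from the cell surface, and it had 675, 655 and 752 CPM in sEH-/- against 429, 288 and 270 CPM in wild-type libraries. The genotypes did not overlap, for a log2 fold change of 1.08 (SE 0.16, with an adjusted p = 0.0137, edgeR). At 0.43 counts per exonic base this difference may be understated, and it was 1.42 with the counts corrected for the ceiling. The call was lost without wild-type replicate 2 (adjusted p = 0.0744) or 3 (adjusted p = 0.0939). None of 14 genes of the amyloid precursor protein and its processing was called (median 0.066), the largest difference being -0.49 for *Aph1b*, a subunit of γ-secretase (SE 0.15, adjusted p = 0.0821), which passed both thresholds without sEH-/- replicate 3. None of 11 receptors sorted by SORLA, sortilin or SNX27 with retromer was called (median -0.018). *Il6ra*, the interleukin 6 receptor that SORLA can bind, had the largest difference in that list, 0.62 (SE 0.16, adjusted p = 0.0577), and was called without sEH-/- replicate 1 (adjusted p = 0.0381) or wild-type replicate 1 (adjusted p = 0.0247).

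**Figure D5:**
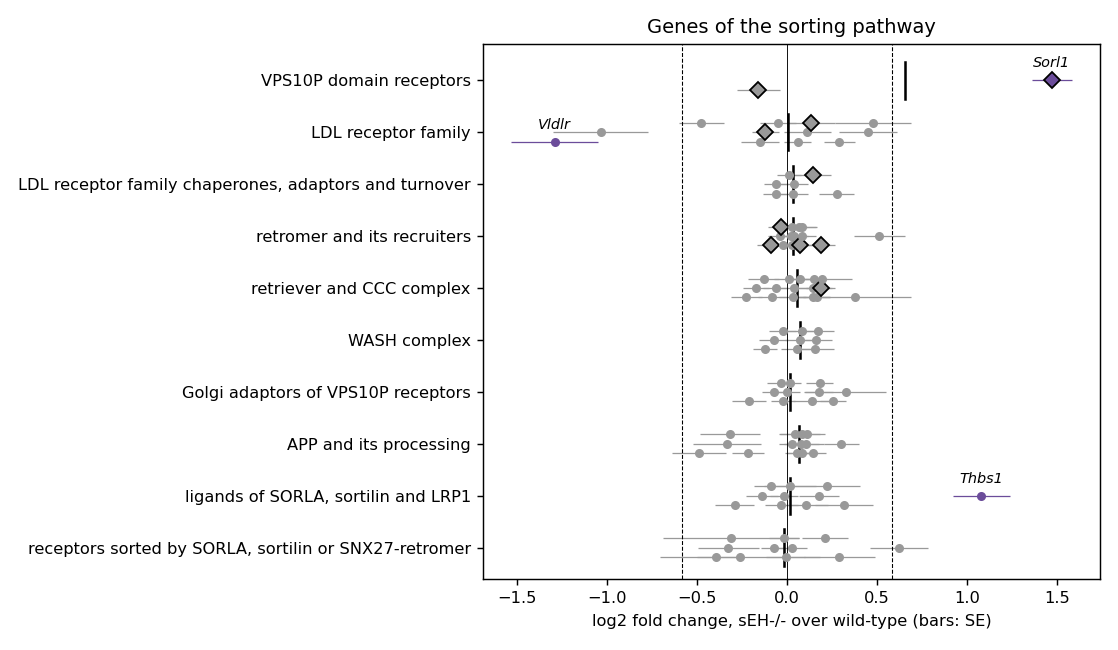
Log2 fold change of sEH-/- over wild-type (x axis, bars are SE) of the tested genes in each of 10 pathway lists (y axis), with members as diamonds, called genes in purple, the list median as a black bar and dashed lines at the threshold. *Sorl1* (1.47), *Thbs1* (1.08) and *Vldlr* (-1.29) are the called genes.

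Some markers of monocyte states were also higher in sEH-/- cells, and their part in the difference of *Sorl1* was not tested. Of 5 tested classical monocyte markers, 2 were called higher in sEH-/- cells. The summed level of the list was 240.2 to 336 CPM in sEH-/- against 204 to 257 CPM in wild-type libraries, which overlapped. Most of this sum was *Chil3*, with 181 to 272 CPM in sEH-/- and 180 to 228 CPM in wild-type libraries. *Chil3* was at 0.65 counts per exonic base, so its difference may be understated or otherwise distorted by the removal of duplicates. The log2 fold changes of the 5 tested markers ran from 0.089 for *Chil3* to 3.28 for *F13a1*. All were above 0, with a median of 1.24, beside a median of -0.00092 over all genes. *Ly6c2* had 200, 226 and 206 counts in sEH-/- against 91, 91 and 107 in wild-type libraries. *F13a1* had 20, 95 and 14 against 5, 4 and 5 counts, and its call was lost without sEH-/- replicate 2 or any of the wild-type libraries. The call of *Ly6c2* was lost without wild-type replicate 3 (adjusted p = 0.0841, edgeR). Of 8 Ly6C-low monocyte markers, *Cx3cr1* alone was called higher, with 76, 191 and 98 against 22, 27 and 30 counts, and not without wild-type replicate 2 (adjusted p = 0.0861) or 3 (adjusted p = 0.108). The log2 fold changes of the 8 ran from -0.55 for *Eno3* to 2.47 for *Cd300e*. They were above 0 for 7 and below 0 for 1, with a median of 1.14. *Cd300e* had only 19, 8 and 1 against 0, 3 and 2 counts, which overlapped. The median lay between *Nr4a1* and *Treml4*, which averaged 26.5 and 11 counts. *Itgal*, the most abundant of the 8, differed by 0.48 and overlapped. That list summed to 369.9 to 504 CPM in sEH-/- against 278 to 361 CPM in wild-type libraries, mostly from *Itgal*. In CPM, *F13a1* and *Cx3cr1* were highest in sEH-/- replicate 2, and *Ly6c2* and *Sorl1* in sEH-/- replicate 3.

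Of the markers of other cell types, most had too few counts to be tested or no row, and 0 of the 10 tested were called (1 of neutrophils, 3 of dendritic cells, 1 of lymphocytes and 5 of stromal cells). Neutrophil markers summed to 28.2 to 31.9 CPM in sEH-/- against 17.4 to 21.2 CPM in wild-type libraries, mostly from *S100a8*. The other neutrophil genes with a row were not tested, at 0 to 10 counts per library. *Camp* had 10, 3 and 4 counts in sEH-/- against 1, 1 and 1 in wild-type libraries. *Ngp* (4, 4 and 3 against 0, 3 and 1) and *Elane* (2, 3 and 1 against 0, 1 and 1) tied in counts. These 2 were apart only after scaling, and *S100a9* and *Ltf* overlapped. Of all genes tested, 26.3% did not overlap. In the same order, dendritic cell markers summed to 27.0 to 57.7 and 42.2 to 58.9 CPM, and stromal markers to 11.4 to 20.9 and 7.04 to 63.1 CPM. *Cd4* was the only lymphocyte marker with a row, at 16.4 to 35.9 and 20.4 to 30.7 CPM. Among dendritic cell markers 1 was at 0 in all libraries, and the 3 tested had log2 fold changes of -0.98 to -0.095. Stromal markers were above 0 for 2 and below 0 for 3. Their highest wild-type sum was in replicate 2, where *Col1a2* had 171 counts, against 8 and 58 in wild-type replicates 1 and 3.

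The patterns of the other members over the 6 libraries were compared with that of *Sorl1* by Pearson's r of log2 CPM, as a description over libraries that share their genotype groups. The r was 0.74 for *Vps29*, 0.62 for *Lrpap1*, 0.59 for *Lrp1* and 0.55 for *Vps26a*, and it was -0.62 for *Lrp12*, -0.48 for *Vps35*, -0.33 for *Sort1* and -0.27 for *Snx27*. Of the 10276 genes that averaged 50 counts or more, the 5 with the highest r were *Arglu1* (0.998), *Mmab* (0.995), *Sipa1l1* (0.989), *Chsy1* (0.988) and *Septin6* (0.978). The 5 with the lowest were *Gfer* (-0.992), *Setd6* (-0.992), *3110040N11Rik* (-0.991), *Pold2* (-0.989) and *Fbxw4* (-0.989). None of these 10 genes was called. *Arglu1*, *Sipa1l1*, *Chsy1*, *Setd6* and *Pold2* had an adjusted p under 0.05 (edgeR) but differed by less than 1.5-fold. The likeness was one of shape rather than size, as *Arglu1* had 77.7 ± 1.71 CPM in sEH-/- against 61.1 ± 1.87 CPM in wild-type cells (SD, n = 3 each), a log2 fold change of 0.35 (SE 0.073), against 1.47 for *Sorl1*.

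The genes next to *Sorl1* did not share its difference in size. Within 500 kb on chromosome 9 the table held 3 other genes. *Sc5d*, an enzyme of cholesterol synthesis 127298 bases away, had 69.8, 50.04 and 65.4 CPM in sEH-/- against 69.9, 71.7 and 73.7 CPM in wild-type libraries. This was a log2 difference of -0.22 (SE 0.11, adjusted p = 0.289, edgeR). *Tbcel*, 288019 bases away, differed by a log2 value of 0.19 (SE 0.087, adjusted p = 0.221). *Mir100hg* had 0 to 4 counts per library and was not tested.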

How the data were processed

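The authors deposited raw counts per gene for 6 libraries, used here without other value columns. Per the methods, reads were trimmed, aligned to mm10 (Ensembl release 101), filtered against mitochondrial, ribosomal, multi-mapping and duplicate reads, and counted by strand over exons of single genes. The submitters' processing notes name Trimmomatic 0.39, STAR 2.7.7a, Picard 2.21.7, featureCounts 1.6.5 and DESeq2 1.30.0, and the methods give other versions of most of these. Labels and methods also differ on the library kit (an mRNA kit or a total RNA kit).

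Genes with a mean over 5 counts (13785 genes, 99.8% of counts) were tested with edgeR 4.0.16 in R 4.3.3 (TMM, quasi-likelihood, no covariates) and adjusted by Benjamini-Hochberg over all of them. The SE is the log2 fold change over the root of F. DESeq2 1.42.0 and limma 3.58.1 were alternatives, with other scalings and filters, a replicate block and each library left out. The procedure was tested on simulated data. Between libraries of a genotype, the chi-square of counts per degree of freedom was 2.36 to 5.25, so none was a repeat of another. No source used here says that libraries of a genotype were prepared apart, beyond 1 mouse each.

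Exonic lengths came from GENCODE M21 (19286 of 19309 identifiers found), upstream sequences from RefSeq (GRCm38.p6). The members and lists were chosen with earlier results of these data known. Named are the members, *Ephx2*, called list genes (at most 3 a list), the largest difference per list among genes averaging 50 counts or more, the 5 genes most and least like *Sorl1*, and neighbours within 500 kb. Called markers were named after their values were seen.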

Additional observations from a re-analysis of the deposited data

How the results depend on the processing

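The log2 fold change of *Sorl1* ran from 1.38 to 1.58 over the alternatives, as a description. Of the members, *Snx27* alone changed sign, and ran from -0.073 to 0.018 as each library was left out. No shared effect of replicate numbers was seen, as the correlations of same-numbered deviations from the genotype means were -0.0818, -0.26 and -0.0367. With 3 libraries per genotype, these values cannot show whether mice or preparations were paired. With a replicate block, 234 genes were called against 360, of which 85 were lower against 152, and the same 2 list genes were called. Without the fold change threshold 553 genes passed, 329 of them higher. Without a filter on low counts 240 genes were called lower. With each library left out in turn, 6 to 625 genes were called, 4 to 346 as higher and 2 to 312 as lower. Between 0 and 5 list genes were called in these fits, and 4 with DESeq2 or without a filter (*Il6ra* and *Lrp8* besides *Thbs1* and *Vldlr*). The cause was not tested, beyond the loss of a library or the change of genes tested. Counts corrected for the ceiling of 1 per exonic base, chosen after seeing the data, called 400 genes. Of the 5 genes most like *Sorl1*, 4 were shared at a minimum mean of 20 counts and 0 by Spearman's rho, at which 10 genes tied at 1. The depth of 4400197 to 6096440 counts, 3 libraries per genotype and the removal of duplicates limit what could be seen in the abundant members.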
